A study of Homo sapiens with 4 samples.

Results

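The YAP/TEAD pathway was examined in T24 cells through 10 genes, found by their symbols in the deposited files among 57879 genes in all. They are 3 target genes (CTGF, CYR61 and ANKRD1), the angiomotin-like genes AMOTL1 and AMOTL2, the coactivator genes YAP1 and WWTR1, the transcription factor genes TEAD1 and TEAD4, and the kinase gene LATS2. Each symbol matched 1 gene, and all 10 had enough counts to be tested. T24 is a human bladder carcinoma line. Cells that stably carried the TET1 catalytic domain (TET1-CD), the part of this methylcytosine dioxygenase that oxidizes 5-methylcytosine, were compared with control cells that carried an empty vector (EV), with 2 RNAseq libraries in each group. The cells were infected with lentivirus and selected with puromycin, no inactive mutant was among the libraries, and the source field reads T24_induced for all 4 libraries with no inducing agent named. Whether the libraries of a group came from separate cultures is not given in the sources used here, so the p-values measure the spread between these libraries, which may be technical.

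The Hippo pathway is a kinase cascade that restrains growth at high cell density and low tension. Its last kinases, LATS1 and LATS2, phosphorylate the coactivators YAP (encoded by YAP1) and TAZ (encoded by WWTR1), which are then kept in the cytoplasm or degraded. Unphosphorylated YAP and TAZ enter the nucleus, bind TEAD factors and switch on genes such as CTGF, CYR61 and ANKRD1, while angiomotins hold YAP at junctions and the actin cytoskeleton. AMOTL2 and LATS2 are themselves known targets, which makes the pathway feed back on itself. Activity is regulated largely at the protein level, which RNAseq does not measure.

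Estimated counts summed to between 17442143 and 20295266 fragments per library, and the totals of the groups overlapped. TET1 had 111 and 83 counts in the EV and 2939 and 3310 in the TET1-CD libraries. Of 15 epithelial and urothelial marker genes 8 were tested, and the summed FPKM of the list (fragments scaled to transcript length and library size) was 1430 to 1480 in EV and 1630 to 1660 in TET1-CD cells. KRT5 and KRT20 were listed at 0 in all libraries, and CDH1, UPK1A, UPK1B and UPK3A had at most 3 counts in each. The summed FPKM of fibroblast markers was 1.56 to 1.68 in EV and 4.02 to 5.02 in TET1-CD cells, that of endothelial markers 0.27 to 0.37 and 0.28 to 0.3, and that of leukocyte markers 1.21 to 1.35 and 0.55 to 0.58. Among the fibroblast markers COL1A1 went from 88 and 70 counts to 266 and 314, while COL1A2, DCN and PDGFRA had at most 3 counts in every library.

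The sequences upstream of the start site are shown for 3 members that rose, CTGF, ANKRD1 and AMOTL2, and for YAP1, which fell. They are the 250 bases before a RefSeq start on GRCh38.p14, read along the strand of the gene, and capitals mark GGAATG or its reverse complement CATTCC, the core that TEAD factors bind. The windows are chr6:131951373-131951622 on the minus strand for CTGF (CCN2 in RefSeq), chr10:90921088-90921337 on the minus strand for ANKRD1, chr3:134374448-134374697 on the minus strand for AMOTL2 and chr11:102110197-102110446 on the plus strand for YAP1.
CTGF: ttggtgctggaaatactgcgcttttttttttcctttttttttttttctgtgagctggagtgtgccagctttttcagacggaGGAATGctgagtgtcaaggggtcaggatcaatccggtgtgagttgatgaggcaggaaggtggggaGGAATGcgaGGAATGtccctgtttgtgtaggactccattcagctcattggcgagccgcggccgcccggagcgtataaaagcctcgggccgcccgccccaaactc
ANKRD1: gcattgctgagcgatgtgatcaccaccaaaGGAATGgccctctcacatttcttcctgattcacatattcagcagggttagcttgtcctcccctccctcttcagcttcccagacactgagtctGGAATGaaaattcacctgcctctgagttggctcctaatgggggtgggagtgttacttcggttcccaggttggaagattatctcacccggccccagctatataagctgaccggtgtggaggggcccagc
AMOTL2: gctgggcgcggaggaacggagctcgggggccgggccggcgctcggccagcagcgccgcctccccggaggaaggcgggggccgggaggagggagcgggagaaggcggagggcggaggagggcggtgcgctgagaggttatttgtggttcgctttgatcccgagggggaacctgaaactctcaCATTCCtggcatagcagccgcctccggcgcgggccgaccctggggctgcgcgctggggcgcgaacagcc
YAP1: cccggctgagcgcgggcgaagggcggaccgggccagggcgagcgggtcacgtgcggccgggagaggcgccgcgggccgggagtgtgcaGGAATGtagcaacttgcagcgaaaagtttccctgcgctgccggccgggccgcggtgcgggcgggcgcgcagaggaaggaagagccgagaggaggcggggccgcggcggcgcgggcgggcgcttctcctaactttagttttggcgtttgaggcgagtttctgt

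In CTGF the motif began at positions -169, -104 and -95 from the start, always as GGAATG. ANKRD1 held it at -220 and -128, and a match to an AP-1 pattern (TGANTCA, the same pattern on both strands) lay between them at -195. The match read TGATTCA, and 6.57% of all windows of this length held the pattern. AMOTL2 had 1 match, at -69 from the second of its RefSeq starts and on the opposite strand, and YAP1 had 1, at -162. RefSeq entries were found for 7 members with 9 windows. TEAD1, TEAD4 and CYR61 had no entry. The TEAD motif was in 4 of the 9 windows, against 11.9% of all 35116 windows of this length, and 0.0826% of these held 3 or more matches, as CTGF did. The 4 windows are those printed above. Members include known TEAD targets, so their share is a description and not a test. No match to these letters was found in the windows of AMOTL1, WWTR1 and LATS2, nor in the first of AMOTL2. CpG dinucleotides numbered 13 in the CTGF and 4 in the ANKRD1 window, 0 and 29 in the windows of AMOTL2 and 36 in that of YAP1. Among members not called there were 28 in AMOTL1, 25 in LATS2 and 1 and 13 in the windows of WWTR1. The median was 11 over all windows. These matches describe the reference sequence, and binding was not measured.

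**Figure D1:**
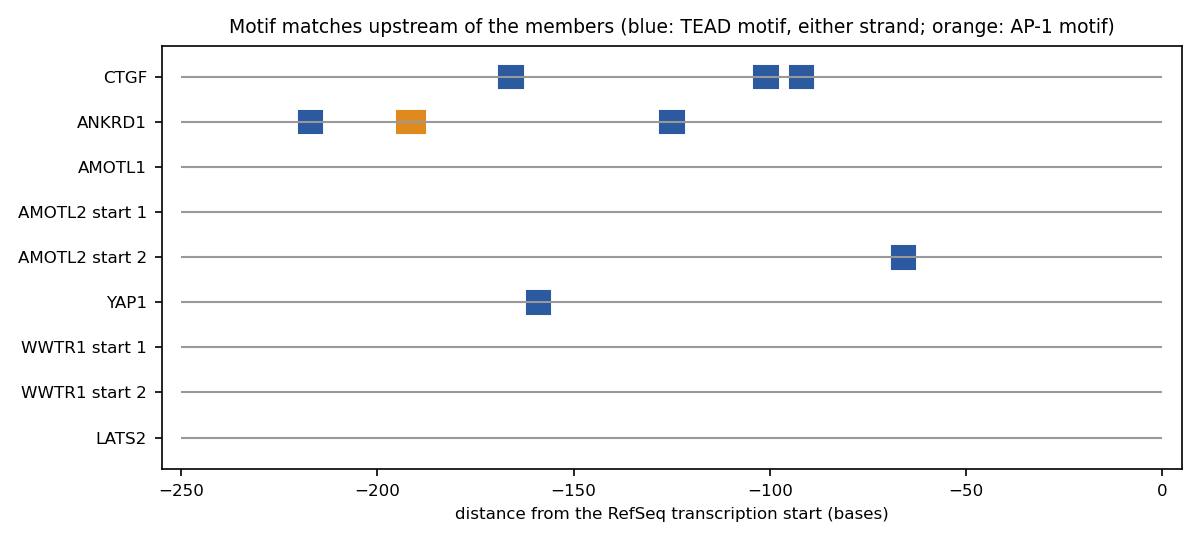
Matches to the TEAD motif (blue, either strand) and the AP-1 motif (orange) in the 250 bases before each RefSeq start of the members, by distance from the start in bases. CTGF held 3 TEAD matches, ANKRD1 2, and AMOTL2 and YAP1 1 each, while the other 5 windows held none.

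The members did not all move in 1 direction. Of the 10 genes, 4 were higher in TET1-CD cells (CTGF, ANKRD1, AMOTL2 and TEAD4) and 1 was lower (YAP1) at an adjusted p under 0.05 by edgeR's quasi-likelihood test, which called 19.7% of all 14573 genes tested, 10.0% as higher and 9.61% as lower. ANKRD1 alone also reached a fold change of at least 2, as 3.77% of all genes did, 2.72% higher and 1.04% lower. At an unadjusted p under 0.05 there were 7 members, against 33.2% of all genes. The median log2 fold change of the members was 0.067, against 0.001 over all genes tested. The libraries of the groups did not overlap for 8 members, and 61.0% of all genes tested showed this. Without TET1-CD replicate 1 the count of members called fell to 2, and without TET1-CD replicate 2 it was 3. The single TET1-CD library left in those fits was assumed to vary like the others. In bulk RNA, fewer cells that express a gene and less of its RNA per cell cannot be told apart.

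CTGF encodes connective tissue growth factor, a secreted matricellular protein of the CCN family, and lies on chromosome 6 of GRCh37 (132269316 to 132272513, minus strand). After TMM normalization it had 983.6 and 1102.8 counts in EV against 2088.0 and 1694.4 with TET1-CD, so that each TET1-CD library was well above each EV library. On the log2 scale TET1-CD minus EV was 0.86 with an SE of 0.1 (edgeR, adjusted p = 0.000314), or 1.81-fold. With each library left out in turn the log2 fold change was between 0.70 and 1.0, and CTGF was called each time.

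ANKRD1 encodes a cardiac ankyrin repeat protein found in the nucleus and the sarcomere (chromosome 10, 92671853 to 92681033, minus strand). It was the member with the lowest counts, 88.6 and 85.2 in the EV against 222.4 and 180.0 in the TET1-CD libraries. The log2 difference was 1.21 with an SE of 0.15 (edgeR, adjusted p = 0.000645), or 2.31-fold, and the EV libraries lay close together. ANKRD1 was called under every alternative run, with a log2 fold change of 1.05 to 1.35 when a library was left out.

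CYR61, which encodes another secreted CCN protein, lies on chromosome 1 (86046444 to 86049645, plus strand). Its libraries overlapped, with 7183.6 and 7961.5 normalized counts in EV against 8505.2 and 7375.8 with TET1-CD. The log2 fold change was 0.07 (95% interval -0.10 to 0.24, adjusted p = 0.576 from edgeR), so a rise of the size seen for CTGF lay outside the interval. In FPKM, the ratio of CTGF to CYR61 was 0.134 and 0.135 in the EV and 0.24 and 0.224 in the TET1-CD libraries. This shift of 0.78 on the log2 scale had p = 0.333 in an exact two-sided permutation test over the 4 libraries. That is the smallest p that 2 against 2 libraries allow, and each of the 5 pairs of members compared in this way reached it, before and after adjustment over the 5.

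The angiomotin-like proteins are scaffolds that bind YAP and TAZ at tight junctions and on actin filaments. AMOTL2 (chromosome 3, 134074716 to 134094321, minus strand) had 4046.3 and 4404.8 normalized counts in EV against 5798.9 and 5424.2 with TET1-CD. It rose by a log2 value of 0.41 with an SE of 0.06 (edgeR, adjusted p = 0.00164), or 1.33-fold, and lost the call without TET1-CD replicate 1. AMOTL1 (chromosome 11, 94439597 to 94609918, plus strand) had 1523.5 and 1356.4 in EV against 1516.5 and 1501.1 with TET1-CD. Here the TET1-CD libraries lay between the EV libraries, and the log2 fold change of 0.07 had a 95% interval of -0.09 to 0.22 (adjusted p = 0.548 from edgeR). The FPKM ratio of AMOTL2 to AMOTL1 was 5.19 and 6.38 in EV against 7.34 and 7.39 with TET1-CD.

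The coactivator genes were both lower by value, and YAP1 passed the test. YAP1 (chromosome 11, 101981192 to 102104154, plus strand) had 5296.6 and 4901.2 normalized counts in EV against 4230.3 and 4255.6 with TET1-CD. On the log2 scale TET1-CD minus EV was -0.27 with an SE of 0.06 (edgeR, adjusted p = 0.00988), a level 0.832 times that of EV. The call was lost without either TET1-CD library. WWTR1 (chromosome 3, 149235022 to 149454501, minus strand) had 1757.8 and 1669.3 in EV against 1510.1 and 1515.4 with TET1-CD. These libraries did not overlap either, but the log2 fold change of -0.18 (95% interval -0.31 to -0.05) had an adjusted p of 0.055 from edgeR. WWTR1 passed without EV replicate 2 (-0.22, adjusted p = 0.00746 from edgeR) and with no filter (adjusted p = 0.0482), and its value from summed FPKM was -0.07. YAP1 was expressed above WWTR1, at 2.35 and 2.17 times its FPKM in EV and 2.08 and 1.92 times in TET1-CD cells.

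TEAD factors carry the DNA-binding domain through which YAP and TAZ act, since the coactivators do not bind DNA themselves. TEAD4 (chromosome 12, 3068496 to 3149839, plus strand) had 804.6 and 834.1 normalized counts in EV against 1020.6 and 969.6 with TET1-CD. It rose by a log2 value of 0.28 with an SE of 0.07 (edgeR, adjusted p = 0.0166), or 1.21-fold. This call was lost with DESeq2 and without either TET1-CD library. TEAD1 (chromosome 11, 12695969 to 12966298, plus strand) had 4551.0 and 3920.3 in EV against 3865.2 and 3678.4 with TET1-CD. The lower EV library was close to the higher TET1-CD library, and the log2 fold change of -0.17 (95% interval -0.33 to -0.01) had an adjusted p of 0.132 from edgeR. It passed without EV replicate 2, at -0.27, and with no filter (adjusted p = 0.0326 from edgeR). The FPKM ratio of TEAD4 to TEAD1 was 0.776 and 1.09 in EV against 1.16 and 1.2 with TET1-CD.

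LATS2 is the kinase that marks YAP and TAZ for retention and is also a YAP target (chromosome 13, 21547171 to 21635686, minus strand). It had 992.9 and 1021.9 normalized counts in EV against 959.9 and 909.6 with TET1-CD. All 4 values lay within a narrow range, although those of the groups did not overlap. The log2 fold change was -0.11 with a 95% interval of -0.25 to 0.04 (adjusted p = 0.278 from edgeR). Genes whose span overlaps a member could share its fragments, but WWTR1-AS1, the most abundant of them, had 5 to 20 counts per library and the others at most 2.

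**Figure D2:**
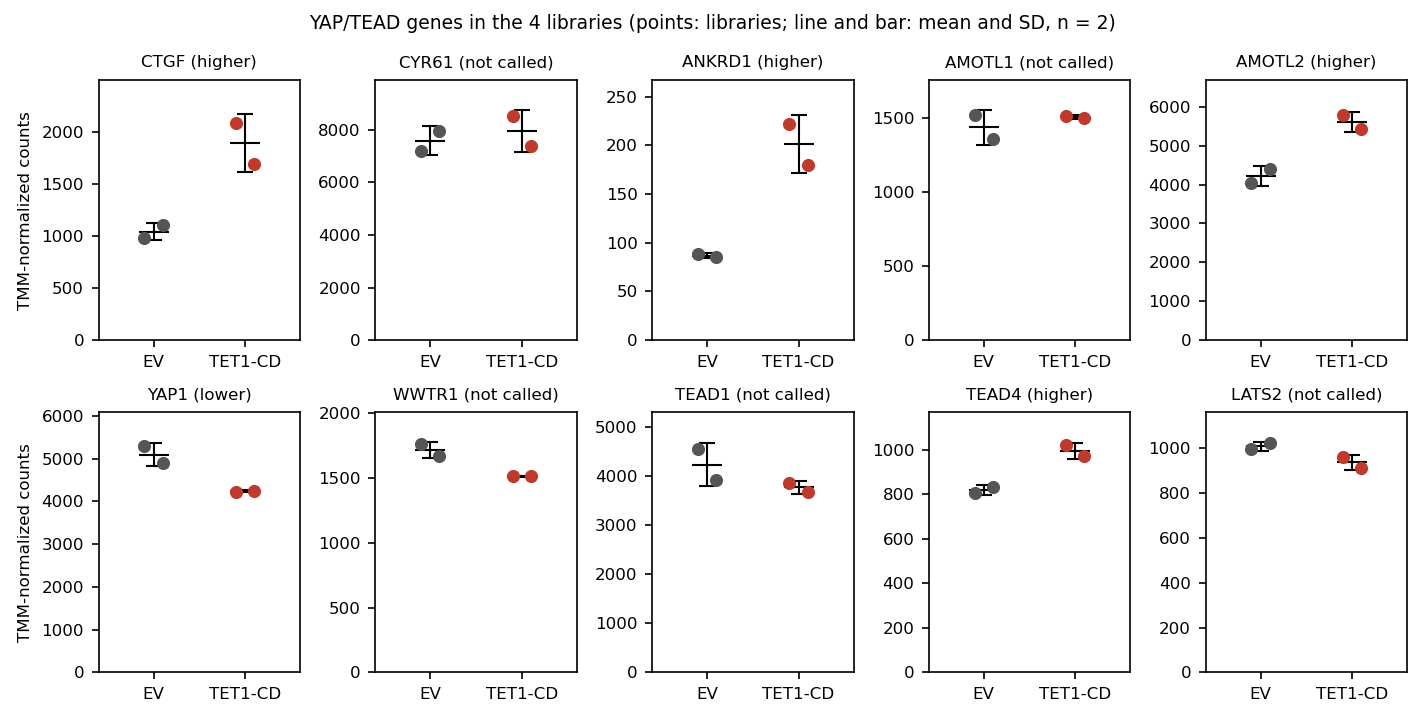
TMM-normalized counts of the 10 members in each library, with EV in gray and TET1-CD in red, and the mean and SD of 2 libraries as a line with a bar; each axis starts at 0. CTGF rose from 1043.2 to 1891.2 and ANKRD1 from 86.9 to 201.2 on average, while the libraries of CYR61 and AMOTL1 overlapped.

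Levels can be compared between genes only per transcript length, as FPKM summed over the transcripts of a gene. In EV cells CYR61 led with 177 ± 12.3 FPKM (SD, n = 2), followed by YAP1 with 62.7 ± 3.26 and AMOTL2 with 51.7 ± 3.46. TEAD1, WWTR1 and TEAD4 came next, with mean FPKM of 29.8, 27.7 and 27.2, and their libraries overlapped. CTGF was just below them at 23.8 ± 1.83 FPKM. LATS2 (9.74), AMOTL1 (8.99) and ANKRD1 (2.34) had the lowest mean FPKM. In TET1-CD cells AMOTL2 (69.7 ± 2.81 FPKM) stood above YAP1 (52.7 ± 0.863), and CTGF (43.4 ± 6.34) stood above TEAD4 (33.6 ± 1.08), with no overlap of libraries within either pair. CYR61 stayed first at 187 ± 18.3 and ANKRD1 last at 5.46 ± 0.806 FPKM, and LATS2 and AMOTL1 overlapped.

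Transcripts of the same gene can encode different proteins, and the deposited estimates divide fragments among them. These shares are described without a test. The main YAP1 transcript was ENST00000282441, which encodes 504 residues in GENCODE release 44 and took 53.7% and 44.7% of the YAP1 counts in EV against 58.3% and 54.3% with TET1-CD. ENST00000537274 (492 residues) took 24.1% and 26.2%, then 18.2% and 23.8%. The groups did not overlap for these transcripts but came close to each other, and they overlapped for ENST00000345877 (470 residues). For WWTR1, ENST00000465804 took 69.3% and 69.0% in EV against 64.9% and 61.8% with TET1-CD, with ENST00000360632 higher in turn at 29.6% and 28%, then 32.9% and 35.1%. The groups did not overlap, and both transcripts encode 400 residues. Together they hold nearly all WWTR1 counts, so a rise in either share implies a fall in the other. In AMOTL2 the groups did not overlap either, with ENST00000249883 at 75.1% and 71.5% in EV against 77.7% and 77.0% with TET1-CD. How often the shares of all transcripts separate in this way was not computed. In TEAD1 the estimates differed within EV cells, where ENST00000361985 took 20.1% in replicate 1 and 0.1% in replicate 2. The log2 fold change of TEAD1 was -0.17 from summed counts and -0.05 from summed FPKM, which depends on this division. CTGF, ANKRD1 and LATS2 had 1 transcript with all counts, and ENST00000451137 held at least 99.8% of the CYR61 counts.

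**Figure D3:**
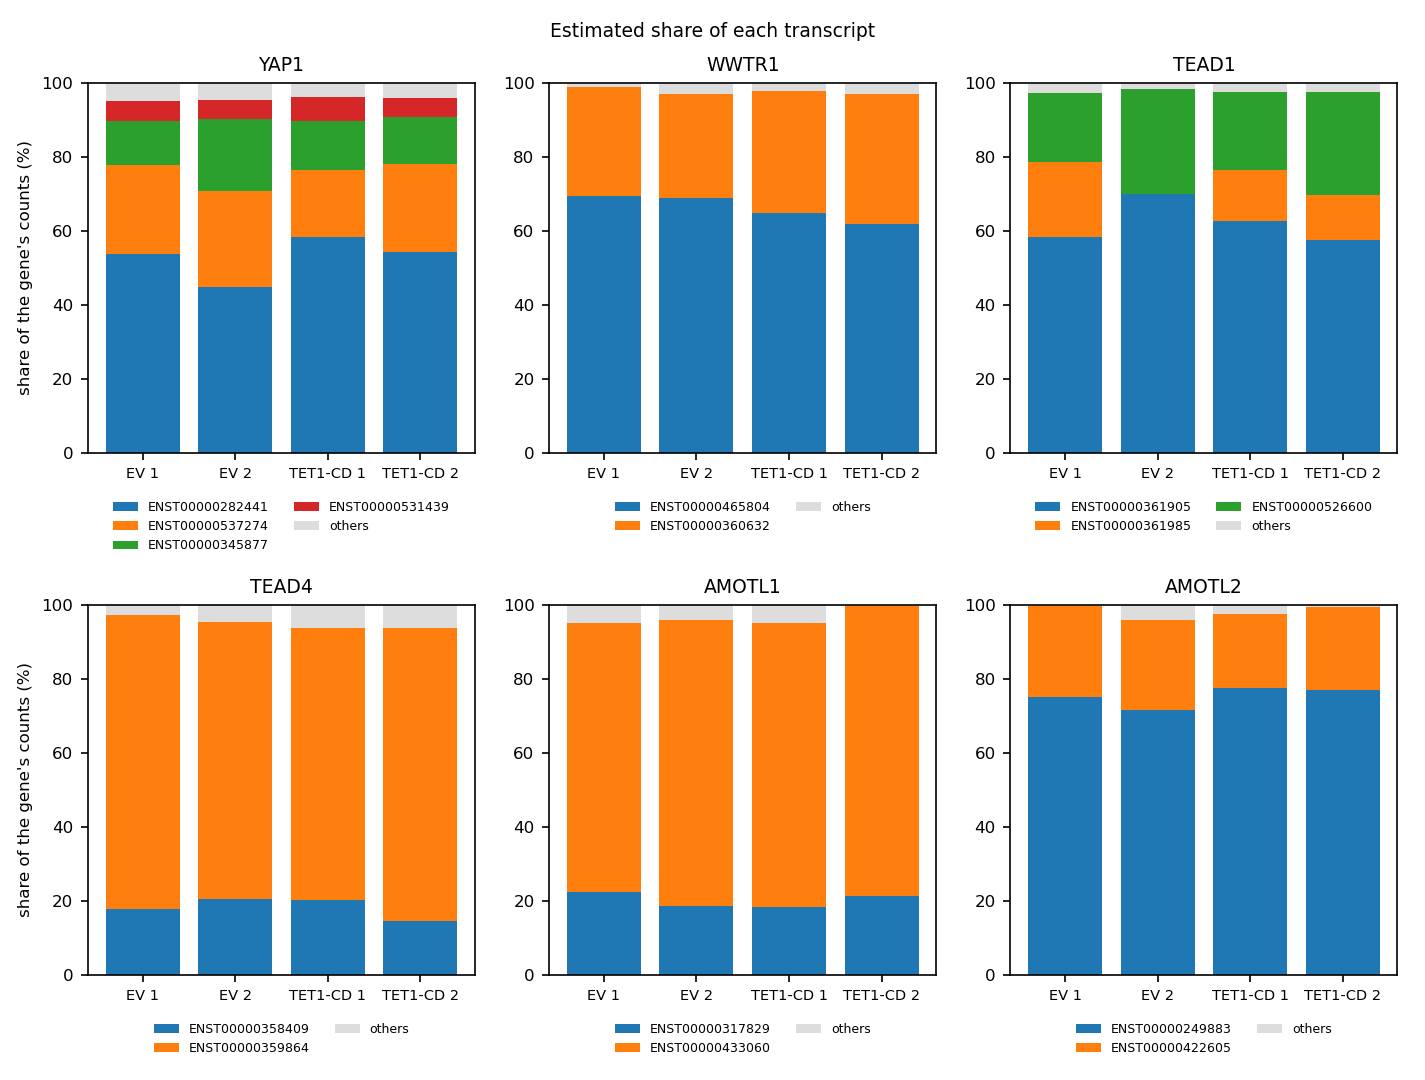
Share of the estimated counts of a gene assigned to each transcript, in percent, for the 6 members with several expressed transcripts, with 1 bar per library; transcripts at or under 5% in every library are summed as others. ENST00000361985 of TEAD1 has 20.1% in EV replicate 1 and 0.1% in EV replicate 2, and the share of WWTR1 in ENST00000465804 is lower in both TET1-CD libraries.

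Other genes of the pathway were taken from lists written by hand, with the members left out. The lists were chosen with earlier results of these data known, so their shares of calls are descriptive. Among 25 upstream Hippo genes, all tested, 4 were higher and 1 lower, which is 20% called against 19.7% of all genes, with a median log2 fold change of 0.03. Those higher were WWC3 (0.67, adjusted p = 0.00152), WWC1 (0.36, adjusted p = 0.00254), RASSF1 (0.31, adjusted p = 0.0127) and WWC2 (0.24, adjusted p = 0.0262), and all values are from edgeR. WWC1 (KIBRA), WWC2 and WWC3 encode related scaffolds that promote LATS activation, and RASSF1 a scaffold that binds the kinases above LATS. DESeq2 called WWC3 and WWC1 as higher, and neither RASSF1 nor WWC2. SAV1, the scaffold of the kinases that act above LATS, was lower at -0.33 (adjusted p = 0.00809 from edgeR). The count was 1 without TET1-CD replicate 1, 2 without TET1-CD replicate 2 and 10 without EV replicate 2 (4 higher and 6 lower), and DESeq2 called 3. None of the 4 tested genes among other TEAD and VGLL genes, the latter of which encode TEAD cofactors, was called by edgeR, DESeq2 or limma-voom, although 3 had an unadjusted p under 0.05 by edgeR, as 33.2% of all genes did. They are VGLL4 (-0.19), TEAD2 (-0.23) and VGLL3 (0.27). Without EV replicate 1, edgeR called 2, VGLL4 and VGLL3, and with the replicate number as a block it called VGLL3.

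Among 20 other YAP/TAZ target genes, 3 were higher, 5 lower and 12 not called, with a median log2 fold change of 0.00, so that the targets moved in both directions. This is 40.0% called, against 19.7% of all genes. TGFB2, a ligand of the TGF-β family, had 116.3 and 131.7 normalized counts in EV against 385.2 and 309.6 with TET1-CD, which is 1.49 in log2 with an SE of 0.14 (edgeR, adjusted p = 9.19e-05). CRIM1, a transmembrane regulator of BMP ligands, rose by 0.74 (adjusted p = 8.49e-05 from edgeR), and MYOF, a membrane repair protein of the ferlin family, by 0.37 (adjusted p = 0.00264 from edgeR). In the other direction, CCDC80, a secreted matrix protein, had 423.5 and 391.7 normalized counts in EV against 186.2 and 224.8 with TET1-CD, which is -0.99 in log2 with an SE of 0.12 (edgeR, adjusted p = 4e-04). FOXF2 (-0.63), IGFBP3 (-0.37), NT5E (-0.28) and ARHGEF17 (-0.22) were lower too. The count was 3 without TET1-CD replicate 1. Of the other CCN family genes NOV alone was tested, with 4 to 23 counts per library and a log2 fold change of 0.65 (standard error 0.7), and none was called by edgeR, DESeq2 or limma-voom, with 0 also at an unadjusted p under 0.05.

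AP-1 factors often bind beside TEAD factors at enhancers. Of 9 tested AP-1 genes, 3 were lower and 0 higher by edgeR, with the same counts from DESeq2 and limma-voom. This is 33.3% called, against 19.7% of all genes called and 9.61% called lower. At an unadjusted p under 0.05 there were 3 of the 9, against 33.2% of all genes. The lower genes were ATF3 (-0.92, adjusted p = 0.00608), JUN (-0.23, adjusted p = 0.0195) and FOSL2 (-0.20, adjusted p = 0.0198), all by edgeR. The median log2 fold change was -0.13. The count was 0 without TET1-CD replicate 1 and 1 without TET1-CD replicate 2. Without EV replicate 2 it was 5, of which 4 were lower and 1 higher.

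CTGF, CYR61 and ANKRD1 are also known to respond to SRF and its MRTF cofactors, which sense actin, and a list of 18 SRF/MRTF target genes was therefore read beside them. Of 17 tested, 10 were higher (58.8%, against 10.0% of all genes called higher) and 0 lower, with a median log2 fold change of 0.23. TAGLN and ACTG2 were the 2 that also reached a fold change of at least 2. The list was chosen with earlier results of these data known, so its share is a description and not a test. DESeq2 and limma-voom each called 10 higher and 0 lower too. The SRF motif (the CArG box, CCWWWWWWGG with W for A or T) was in 24.4% of the upstream windows of this list. These windows belonged to 8 of the 16 genes that had any window. ACTG2, CNN2, FHL2 and SRF were called higher, while ACTN1, FHL1, FLNA and TGFB1I1 were not called. TAGLN and MYL9 were not among the 8. The motif was in 0 of the 9 member windows and in 1.16% of all windows, and CYR61 had no window. Since the list was written from known SRF/MRTF targets, its motif share is likewise a description and not a test. Binding of SRF was not measured. TAGLN, an actin-binding protein of smooth muscle, had 913.5 and 901.0 normalized counts in EV against 2217.8 and 2071.6 with TET1-CD, which is 1.24 in log2 with an SE of 0.06 (edgeR, adjusted p = 1.12e-06). ACTG2, an enteric smooth muscle actin, rose by a log2 value of 2.0 with an SE of 0.18 (edgeR, adjusted p = 7.84e-05) from 39 and 36 to 152 and 145 counts. Actin genes are similar enough to share fragments, so its count is uncertain. MYL9, a myosin light chain, rose by 0.63 (adjusted p = 0.000163 from edgeR). ACTA2, chosen after its values were seen, had a log2 fold change of -0.35 and was not called (adjusted p = 0.11 from edgeR). The epithelial and urothelial markers had 5 of 8 tested genes higher by edgeR (62.5%, against 10.0% of all genes) and 0 lower. Those 5 were GATA3 (1.25 in log2), KRT19 (1.01), FOXA1 (0.37), KRT7 (0.34) and KRT18 (0.18). EPCAM (0.54), PPARG (0.1) and KRT8 (-0.08) were not called, and DESeq2 called 3 markers, all higher. The fibroblast marker COL1A1 rose by 1.89. The leukocyte marker ITGAM had a log2 fold change of -2.19 (edgeR, adjusted p = 0.0165), from 22 and 29 counts in EV to 3 and 8 with TET1-CD. PDGFRB, CDH5 and CD14, the other tested markers of the fibroblast, endothelial and leukocyte lists, were not called. The part that the marker lists have in these results was not tested. With either TET1-CD library left out, fewer SRF/MRTF genes were called, all of them higher. With each library left out in turn, the log2 fold change was 1.19 to 1.29 for TAGLN, 1.88 to 2.11 for ACTG2 and 0.55 to 0.69 for MYL9.

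**Figure D4:**
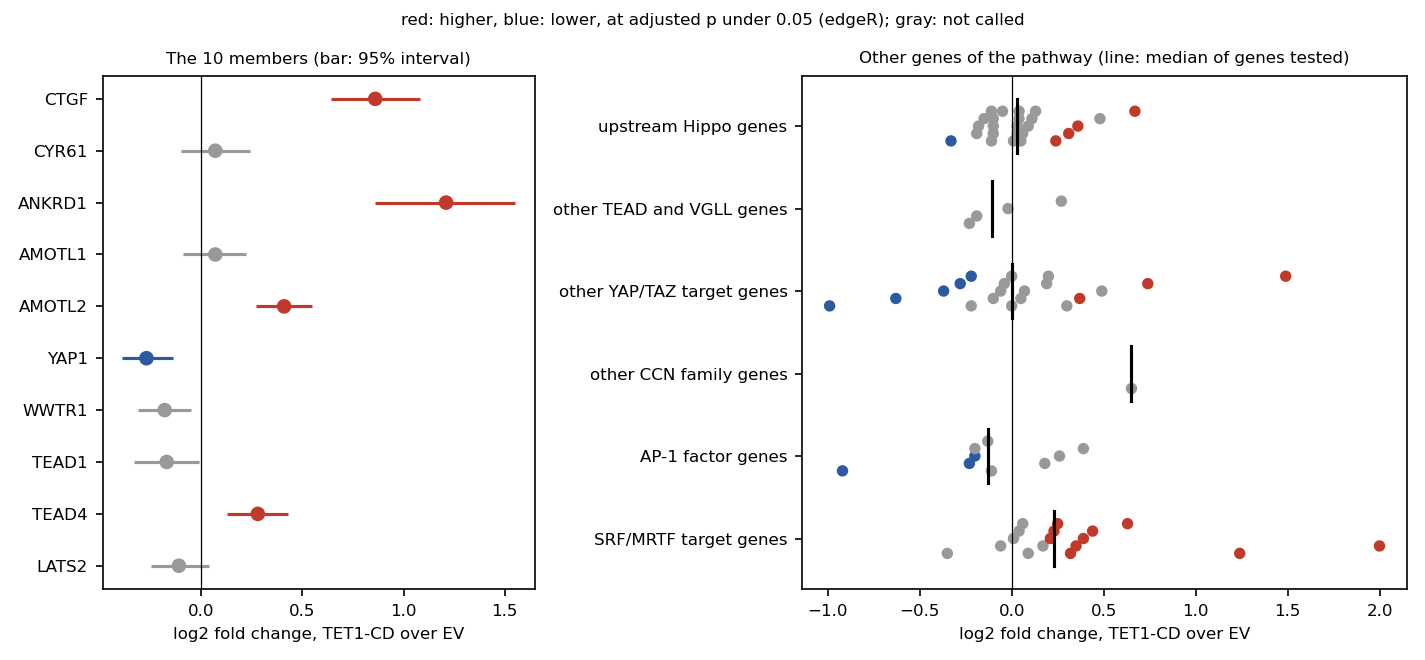
Log2 fold changes of TET1-CD over EV cells from edgeR, at left for the 10 members with 95% intervals and at right for the tested genes of 6 hand-written lists, with the median of each list as a line. Red and blue mark genes called higher and lower at an adjusted p under 0.05, and 10 of 17 SRF/MRTF target genes are red and none blue, while other YAP/TAZ target genes have 3 red and 5 blue.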

How the data were processed

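RNAseq of 2 EV and 2 TET1-CD libraries of T24 cells was analysed. Total RNA was extracted with Trizol and sequenced on an Illumina HiSeq instrument. For each transcript the authors deposited an estimated count, which need not be whole, and an FPKM value, scaled by the authors to transcript length and library size. The submitters' processing notes name cutadapt 1.9.1, HISAT2 2.0.1, HTSeq 0.6.1, DESeq2 and hg19. The tool that gave estimates per transcript and its annotation are not given in the sources used here.

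The deposited estimated counts of all transcripts of a gene were added up and rounded. TET1-CD was compared with EV by edgeR 4.0.16 (glmQLFit and glmQLFTest, TMM, filterByExpr, no block) in R 4.3.3 over 14573 genes, with Benjamini-Hochberg adjustment over all of them. A gene was called at an adjusted p under 0.05, and a DEG also had a fold change of at least 2. Standard errors were the log2 fold change over the square root of F, and 95% intervals used the total degrees of freedom. With 2 libraries per group, the spread of a gene is largely borrowed from all genes.

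The genes named are the 10 members, TET1, the 3 genes of smallest p in each of 6 lists, and genes that make up a count of 5 or fewer. SRF/MRTF target genes with an SRF motif were named as well. The members and lists were chosen with earlier results of these data known. Lists were described by counts and medians, with no set test. Marker lists (4) were read as summed FPKM and counts of calls. Promoters came from RefSeq on GRCh38.p14, and no coordinates were moved between builds. Alternatives were DESeq2 1.42.0, limma-voom (limma 3.58.1), scaling by RLE factors or by library size alone, a minimum of 10 counts in all libraries or no minimum, the replicate number as a block, glmTreat against a fold change of 1.5, limma on log2(FPKM + 0.1) and the omission of each library.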

Additional observations from a re-analysis of the deposited data

How the results depend on the processing

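The direction and the side of the threshold were the same as reported in 113 of 130 values of the members over 13 alternatives. A call was lost in 10, gained in 4, and 3 changed sign without a call. Those 3 were CYR61, at -0.01 without EV replicate 1 and -0.04 without TET1-CD replicate 1, and AMOTL1, at -0.02 without EV replicate 2. With a library left out CYR61 ran from -0.04 to 0.17, AMOTL1 from -0.02 to 0.15 and NOV from -0.98 to 1.35. Genes called among all tested were 2865, and 1739 with DESeq2, 1595 with limma on log2 FPKM and 301 with glmTreat. With 10 counts in every library DEGs were 332, against 549. With no filter edgeR called 7 members, 4 higher and 3 lower, and 3603 of all 25160 genes tested. With glmTreat the calls were 1 of the members (ANKRD1), 0 upstream Hippo, 2 other target, 0 AP-1 and 2 SRF/MRTF genes. With limma on log2 FPKM they were 3 upstream Hippo, 5 other target and 1 AP-1 genes, and DESeq2 called 3 upstream Hippo genes. With 1 library left out, the counts ran from 832 to 3779 for all genes, 323 to 617 for DEGs, 2 to 7 for members, 1 to 2 for members that are DEGs, 1 to 10 for upstream Hippo, 0 to 2 for TEAD and VGLL, 3 to 10 for other target, 0 to 5 for AP-1 and 4 to 11 for SRF/MRTF genes. Calls among all genes rose when an EV library was left out and fell when a TET1-CD library was. Each of these fits had fewer libraries and could take replicate spread only from the pair left intact. The pairs were not equally close, with a chi-square per gene of 6.4 for the EV pair and 2.75 for the TET1-CD pair. What these differences contribute to the changed counts was not tested.

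The replicate numbers were not taken to pair the libraries, since no source says that they mark a shared culture, and the deviations of same-numbered libraries had a correlation of 0.007 across 14573 genes, which are not independent replicates. With the replicate number as a block, the same number of members was called (5), and VGLL3 made 1 call among the other TEAD and VGLL genes. The block moved no other count reported here by over 1.5 times. ANKRD1 had the lowest counts of the members, and NOV had at most 23 per library, which limits the precision of their fold changes.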
